A study of Caenorhabditis elegans with 21 samples.

Results

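The genes described are the major sperm protein (*msp*) and the related sperm-specific *ssp* genes of *Caenorhabditis elegans*. They were taken by name, as every row of the poly(A) count table whose gene name starts with msp- or ssp- followed by a digit. There were 37 such genes among the 45461 genes listed, 30 *msp* and 7 *ssp*. Poly(A) RNA was sequenced from whole worms of the *hpl-2*(*tm1489*) deletion strain, in which part of *hpl-2*, which encodes a homolog of heterochromatin protein 1, is deleted (3 libraries), and from whole N2 worms, the wild-type Bristol strain (2 libraries). Both strains were grown at 20°C and no agent was given to either. The sample labels place the *hpl-2*(*tm1489*) animals at the L4 larval stage and the N2 animals at the young adult stage, whereas the study's methods list both as L4, so a difference of genotype and one of stage cannot be told apart in these libraries.

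Sperm of nematodes have no flagellum and crawl by means of a pseudopod. Major sperm protein is the small, abundant protein whose filaments build the cytoskeleton of that pseudopod, and it is also released from sperm as a hormone that triggers oocyte maturation and contraction of the gonadal sheath. In hermaphrodites the *msp* genes are transcribed in spermatocytes during late larval life, before the germ line changes over to making oocytes. The many *msp* copies encode nearly identical proteins and lie in clusters, and the *ssp* genes encode shorter sperm proteins with a domain of the same kind.

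This likeness bears on each value below. The authors counted uniquely mapped reads per gene, so reads that fit several copies equally well were not counted, and the count of a member rests on the stretches that set it apart from the other copies. Counts per gene are not corrected for length, and the level of a member is therefore compared between libraries and not with that of another gene.

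Gene counts came to between 95252804 and 114718047 per library in *hpl-2*(*tm1489*) and to 66490671 and 80724052 in N2. Levels are given as CPM, the gene's count over the library's total in units of 1e+06 counts, after TMM scaling between libraries. The threshold for calling a change was an adjusted p (Benjamini-Hochberg) of 0.1, from the quasi-likelihood test of edgeR on 17498 genes. Of these, 61.5% were called, 33.9% higher and 27.6% lower in *hpl-2*(*tm1489*). The *hpl-2* gene had 26.7, 30.4 and 29.9 CPM in *hpl-2*(*tm1489*) and 38.9 and 38.6 CPM in N2, with a log2 fold change of -0.42 (standard error 0.26, adjusted p = 0.192), and these counts do not separate the deleted part from the rest of the gene.

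Transcripts of the sperm proteins did not move as a block. Among the 36 members that passed the expression filter, 17 were higher and 4 were lower in *hpl-2*(*tm1489*) than in N2, and 15 were not called. The share called higher was 47.2% and the share called lower 11.1%, beside 33.9% and 27.6% of all genes tested. The median log2 fold change of the tested members was 0.48, with quartiles of -0.11 and 0.95, beside a median of 0.16 over all genes tested. Without N2 replicate 1 these medians were 0.30 and 0.25, and without N2 replicate 2 they were 0.78 and 0.17, so the distance between members and all genes depended on the N2 library used. The largest increase was in *msp-79* and the largest decrease in *msp-74*, and 12 of the 21 called members differed by at least 2-fold. In whole worms, a change in the number of cells that make sperm cannot be told apart from a change in transcript per cell.

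In 22 of the 37 members all 3 *hpl-2*(*tm1489*) libraries lay above both N2 libraries, in 4 they lay below, and in 11 the groups overlapped. Of the 37, *msp-32* did not pass the filter and lay above. Over all genes tested, 39% lay above and 33% below. Upper quartile normalization moved the median log2 fold change of all genes tested from 0.16 to -0.16. The members' median minus that of all genes was 0.33 with it, beside 0.32 in the main fit. The balance of directions depended on this scaling of all genes, since upper quartile normalization gave 10 members higher and 8 lower. It also depended on an N2 library, since without N2 replicate 1 only 9 members were called higher, with 4 lower. In every one of the 12 alternative fits, 12 members kept their call, namely *msp-33*, *msp-38*, *msp-55*, *msp-78*, *msp-79*, *msp-152*, *ssp-9*, *ssp-31* and *ssp-32* as higher and *msp-19*, *msp-74* and *ssp-16* as lower.

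**Figure D1:**
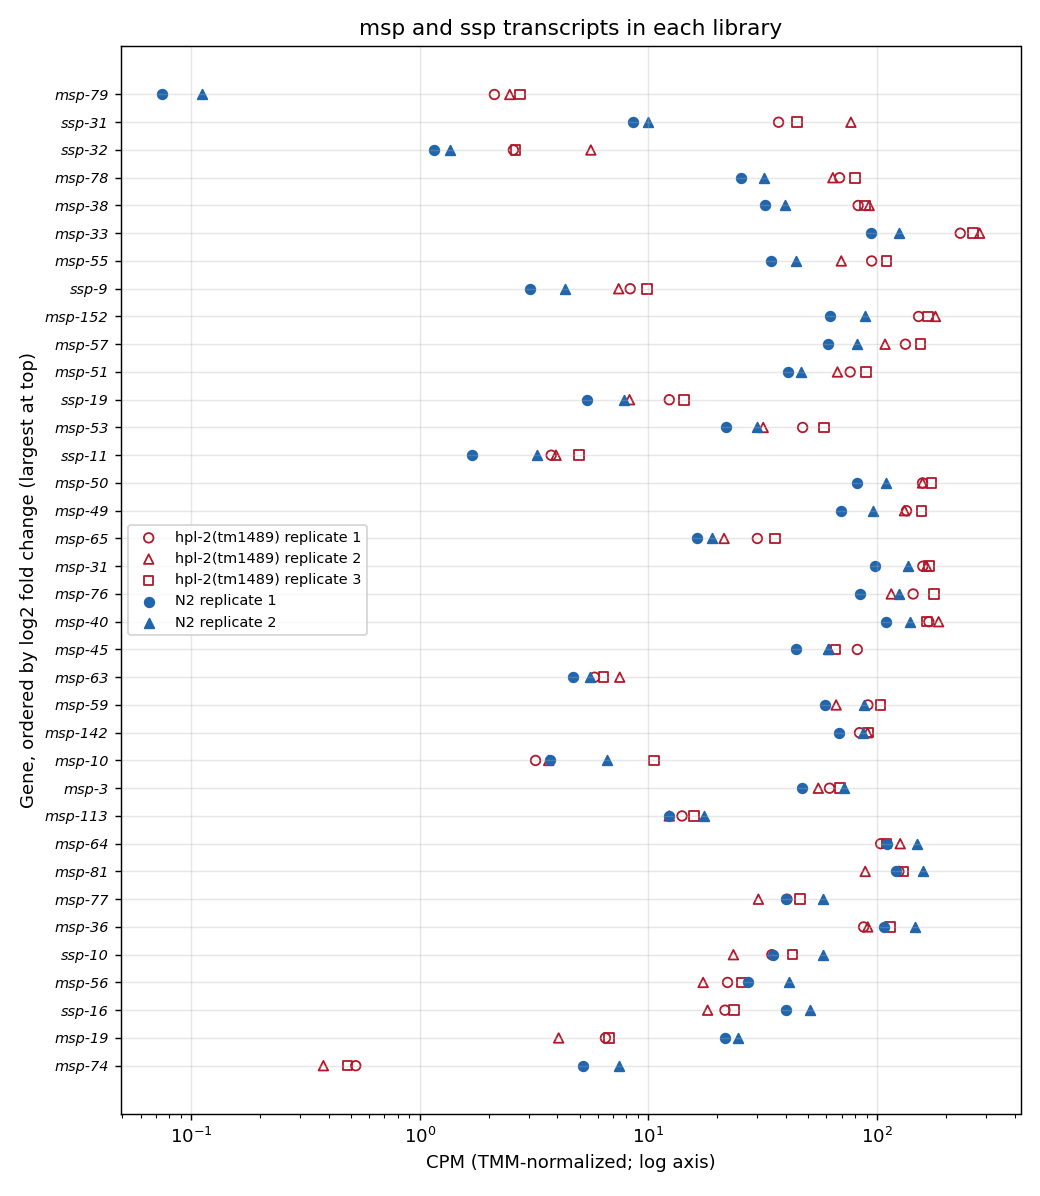
CPM of the 36 tested *msp* and *ssp* genes in each library on a log axis, ordered from the largest increase at the top to the largest decrease at the bottom, with open red symbols for the 3 *hpl-2*(*tm1489*) libraries and filled blue symbols for the 2 N2 libraries. The groups stand farthest apart in *msp-79* at the top (2.12 to 2.74 CPM against 0.0746 and 0.111 CPM) and in *msp-74* at the bottom, and overlap in most members between *msp-76* and *ssp-10*.

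Summed over all 30 *msp* genes, the level was 2411, 2333 and 2690 CPM in *hpl-2*(*tm1489*) and 1505 and 2037 CPM in N2. No *hpl-2*(*tm1489*) library overlapped N2, but the higher N2 library lay nearer to the lowest mutant library than to the other N2 library. With the *msp* rows summed into a single row before the fit, a 1.40-fold difference was fitted, at 0.49 on the log2 scale (standard error 0.26), and it did not pass the test (adjusted p = 0.145). Without any scaling between libraries, *msp* genes held 0.269%, 0.271% and 0.258% of all counts in *hpl-2*(*tm1489*) and 0.150% and 0.165% in N2. Reads that fit several copies are missing from these shares, so they are not the shares of *msp* among transcripts. With library size alone as the scaling, the sum passed the test (0.75 on the log2 scale, adjusted p = 0.00819). In the alternative fits the adjusted p of this sum ran from 0.00819 to 0.582.

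Apart from *msp-79*, the increases called in *msp* genes were of 1.65-fold (*msp-65*) to 2.47-fold (*msp-78*). *msp-79* had 271, 281 and 250 counts in *hpl-2*(*tm1489*) and 6 counts in each N2 library. It was thus close to the floor in N2 and well above it in each mutant library. It rose 26.5-fold (log2 4.73, standard error 0.47, adjusted p = 6.05e-05).

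*msp-78*, which lies in the same stretch of the genome as *msp-79*, had 68.6, 64.1 and 80.4 CPM in *hpl-2*(*tm1489*) and 25.3 and 32.2 CPM in N2. It rose 2.47-fold (log2 1.31, standard error 0.28, adjusted p = 0.00356). *msp-38* had 82.7, 92.5 and 88.7 CPM in *hpl-2*(*tm1489*) and 32.2 and 39.8 CPM in N2, and rose 2.44-fold (adjusted p = 0.00292). In both genes every mutant library was above both N2 libraries by a margin larger than the spread within either group.

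*msp-33* lies near *msp-31*, *msp-32* and *msp-152* in gene order. Its level was 231, 281 and 263 CPM in *hpl-2*(*tm1489*) and 93.8 and 125 CPM in N2, a 2.36-fold increase (log2 1.24, standard error 0.27, adjusted p = 0.00376). *msp-152* had 152.1, 180 and 167 CPM in *hpl-2*(*tm1489*) and 62.4 and 88.3 CPM in N2, a 2.21-fold increase (adjusted p = 0.00634). *msp-50* had 158, 158 and 173 CPM in *hpl-2*(*tm1489*) and 81.6 and 109 CPM in N2, a 1.71-fold increase (adjusted p = 0.0303). None of these 3 genes overlapped between the groups, but the call of *msp-50* was lost without N2 replicate 1 (log2 fold change 0.59, adjusted p = 0.236). The other *msp* genes called higher were *msp-49*, *msp-51*, *msp-53*, *msp-55*, *msp-57* and *msp-65*, and over all 12 the log2 fold changes ran from 0.72 to 4.73.

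Of the 29 *msp* genes tested, 12 were called higher and 3 lower, beside 33.9% and 27.6% of all genes tested. *msp-74* had 67, 43 and 44 counts in *hpl-2*(*tm1489*) and 415 and 400 counts in N2, although the mutant libraries were the deeper ones. Its level was 0.462 ± 0.0749 CPM in *hpl-2*(*tm1489*) (SD, n = 3) and 6.29 ± 1.61 CPM in N2 (SD, n = 2). It was 13.6-fold lower (log2 fold change -3.76, standard error 0.34, adjusted p = 4.25e-05 in edgeR's quasi-likelihood test).

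*msp-19* had 6.49, 4.05 and 6.71 CPM in *hpl-2*(*tm1489*) and 21.7 and 24.6 CPM in N2. It was 4.03-fold lower (log2 fold change -2.01, standard error 0.30, adjusted p = 0.000467), with the lowest N2 library far above the highest mutant library. *msp-56* had 22.2, 17.4 and 25.7 CPM in *hpl-2*(*tm1489*) and 27.4 and 41.1 CPM in N2. Its decrease of 1.58-fold was near the threshold (adjusted p = 0.0907), and the call was lost without *hpl-2*(*tm1489*) replicate 1 (adjusted p = 0.135) and without N2 replicate 2 (adjusted p = 0.54).

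Most *msp* genes with many counts that were not called had small differences of either sign. *msp-40* had 169, 186 and 165 CPM in *hpl-2*(*tm1489*) and 110 and 139 CPM in N2 (log2 fold change 0.48, adjusted p = 0.138). *msp-31* had 159, 165 and 169 CPM in *hpl-2*(*tm1489*) and 98.2 and 137 CPM in N2 (log2 fold change 0.48, adjusted p = 0.143). In these 2 genes the groups did not overlap, yet the lowest mutant library was nearer to the higher N2 library than the N2 libraries were to each other.

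*msp-76* had 144, 116 and 178 CPM in *hpl-2*(*tm1489*) and 84.2 and 125 CPM in N2 (log2 fold change 0.48, adjusted p = 0.203). *msp-64* had 104, 126 and 110 CPM in *hpl-2*(*tm1489*) and 111 and 150 CPM in N2 (log2 fold change -0.20, adjusted p = 0.534). *msp-81* had 125, 88.8 and 131 CPM in *hpl-2*(*tm1489*) and 121 and 160 CPM in N2 (log2 fold change -0.29, adjusted p = 0.404). The groups overlapped in each of these genes, as they did in *msp-36*, with 87.4, 91.2 and 114 CPM in *hpl-2*(*tm1489*) and 108 and 146 CPM in N2 (log2 fold change -0.38, adjusted p = 0.26). The 14 *msp* genes not called ran from -0.38 to 0.48 on the log2 scale with standard errors of 0.25 to 0.52, so differences of about that size were not detectable with 3 and 2 libraries. *msp-32* was not tested, since it had 5, 2 and 2 counts in *hpl-2*(*tm1489*) and none in N2.

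**Figure D2:**
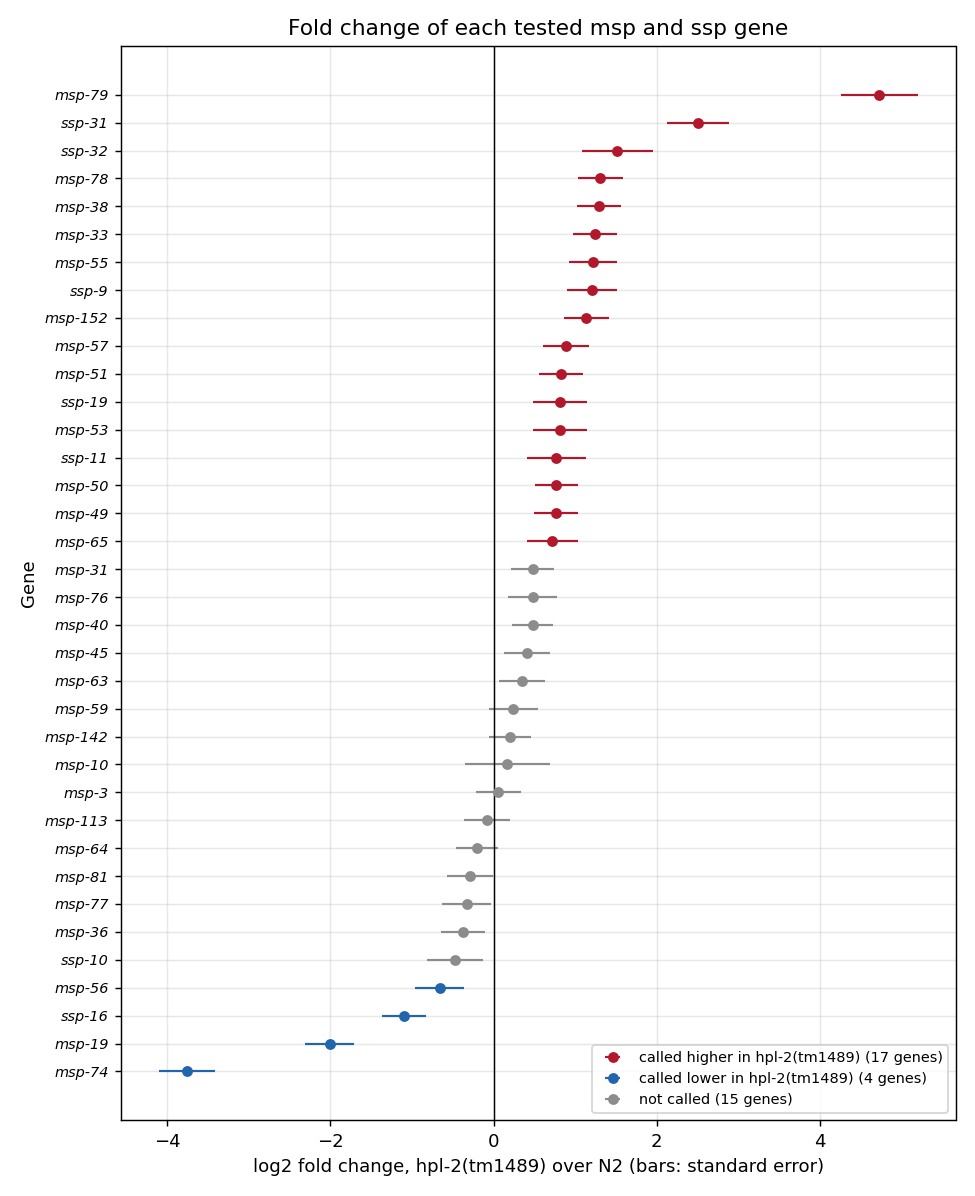
Log2 fold change of *hpl-2*(*tm1489*) over N2 for each of the 36 tested genes, with the standard error as a bar, in red for the 17 genes called higher, blue for the 4 called lower and grey for the 15 not called. Most values form a continuous run from -0.66 (*msp-56*) to 1.52 (*ssp-32*), with *msp-79* and *ssp-31* above it and *ssp-16*, *msp-19* and *msp-74* below it.

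The *ssp* genes also went both ways. Of 7 tested, 5 were higher, 1 was lower and 1 was not called, beside 33.9% higher and 27.6% lower among all genes tested. *ssp-31* had 37.1, 76.9 and 44.6 CPM in *hpl-2*(*tm1489*) and 8.60 and 10.0 CPM in N2, a 5.68-fold increase (log2 2.51, standard error 0.38, adjusted p = 0.000571). *ssp-32* had 2.57, 5.60 and 2.62 CPM in *hpl-2*(*tm1489*) and 1.16 and 1.36 CPM in N2, a 2.87-fold increase (adjusted p = 0.0143). In both genes replicate 2 of the mutant was the highest library by far.

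*ssp-9* had 8.33, 7.41 and 9.86 CPM in *hpl-2*(*tm1489*) and 3.03 and 4.33 CPM in N2, and rose 2.32-fold (adjusted p = 0.00798). *ssp-19* had 12.3, 8.27 and 14.3 CPM in *hpl-2*(*tm1489*) and 5.38 and 7.82 CPM in N2 (log2 fold change 0.82, adjusted p = 0.0584). *ssp-11* had 3.76, 3.95 and 4.97 CPM in *hpl-2*(*tm1489*) and 1.69 and 3.27 CPM in N2 (log2 fold change 0.77, adjusted p = 0.0962). The groups did not overlap in these genes, but for *ssp-11* and *ssp-19* the mutant library nearest to N2 was close to the higher N2 library. *ssp-11* lost its call in 9 of the 12 alternative fits, including each fit without a mutant library, and *ssp-19* lost it in 5, including those without N2 replicate 1 (adjusted p = 0.282) and without *hpl-2*(*tm1489*) replicate 1 (adjusted p = 0.183) or 3 (adjusted p = 0.173).

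*ssp-16* had 21.6, 18.2 and 23.6 CPM in *hpl-2*(*tm1489*) and 40.03 and 50.9 CPM in N2. It was 2.15-fold lower (log2 fold change -1.10, standard error 0.27, adjusted p = 0.00719) and was the single *ssp* gene that fell. *ssp-10* had 34.7, 23.6 and 42.7 CPM in *hpl-2*(*tm1489*) and 35.2 and 57.8 CPM in N2, with overlapping groups (log2 fold change -0.47, adjusted p = 0.268). Summed over the 7 genes, the level was 120, 144 and 143 CPM in *hpl-2*(*tm1489*) and 95.1 and 136 CPM in N2, and the log2 fold change of the sum was 0.24 (standard error 0.27, adjusted p = 0.481). The sum hid a change of composition. *ssp-31* took 30.8%, 53.5% and 31.3% of the *ssp* counts in *hpl-2*(*tm1489*) and 9.04% and 7.39% in N2, whereas *ssp-16* took 17.96%, 12.6% and 16.6% in *hpl-2*(*tm1489*) and 42.1% and 37.5% in N2.

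The composition of the *msp* counts was compared in the same way, since a share within a library does not depend on the scaling between libraries. Of the 30 *msp* genes, 11 had a larger share in all mutant libraries than in both N2 libraries, 11 a smaller one and 8 overlapped. The 11 with a larger share include *msp-32*, which was near the floor and not tested. By level, which is a different measure, 39% of all genes tested lay above both N2 libraries and 33% below. Shares within a library add up to the whole, so a larger share of some genes lowers that of others. *msp-33* took 9.60%, 12.1% and 9.77% of the *msp* counts in *hpl-2*(*tm1489*) and 6.23% and 6.14% in N2. *msp-81* took 5.17%, 3.81% and 4.86% in *hpl-2*(*tm1489*) and 8.04% and 7.83% in N2. *msp-64* took 4.31%, 5.42% and 4.09% in *hpl-2*(*tm1489*) and 7.39% and 7.37% in N2, and *msp-36* took 3.63%, 3.91% and 4.25% in *hpl-2*(*tm1489*) and 7.15% and 7.17% in N2. *msp-81*, *msp-64* and *msp-36* were not called by level, but their shares did not overlap between the groups. In *msp-33*, *msp-64*, *msp-81* and *msp-36* the shares of the N2 libraries were close to each other, although their summed *msp* levels differed.

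**Figure D3:**
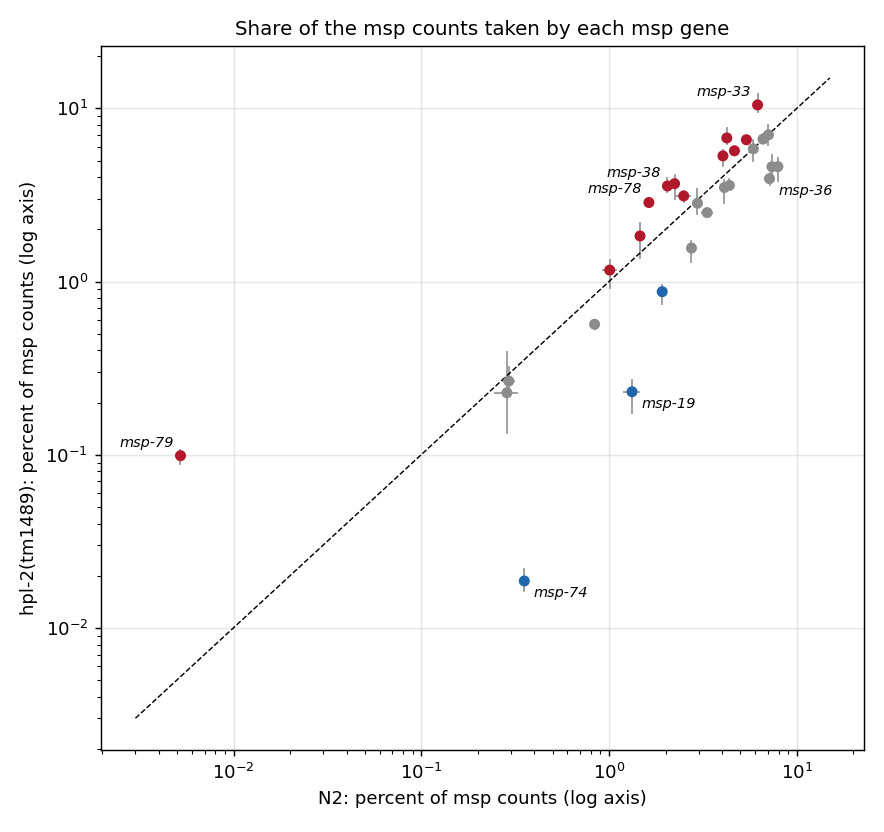
Mean percentage of all *msp* counts taken by each of the 29 tested *msp* genes in *hpl-2*(*tm1489*) (vertical axis) and in N2 (horizontal axis), both on log axes, with grey lines for the range over the libraries and a dashed line of equal share. Red, blue and grey points are genes called higher, called lower and not called. *msp-79* lies far above the line, *msp-74* and *msp-19* far below it, and among the abundant genes *msp-33* (9.60% to 12.1% against 6.14% and 6.23%) lies above it and *msp-36* below it.

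Libraries of the same genotype differed in these genes. In N2, all 36 tested members had a higher level in replicate 2 than in replicate 1, with a ratio of 1.13 to 1.93 and a median of 1.36. This count rests on the TMM factors. With library size alone, an alternative chosen after seeing the data, 30 members were higher in N2 replicate 2 and 6 were lower, with a ratio of 0.918 to 1.57 and a median of 1.11. In *hpl-2*(*tm1489*), replicate 2 was the lowest of the 3 mutant libraries in 21 members and the highest in 8. The 8 were *msp-33*, *msp-38*, *msp-40*, *msp-63*, *msp-64*, *msp-152*, *ssp-31* and *ssp-32*. With library size alone it was the lowest in 19 and the highest in 13. Relative to the mean of mutant replicates 1 and 3, the TMM-scaled level in replicate 2 ran from 0.532 (*msp-10*) to 2.16 (*ssp-32*). *msp-10* was the least stable member between mutant libraries, with 3.21, 3.66 and 10.6 CPM in *hpl-2*(*tm1489*) and 3.72 and 6.61 CPM in N2. The same replicate 2 also stood apart in other germ line genes, with 0.352 of the summed oocyte and eggshell level of the other mutant libraries and 1.94 times their summed level of *nspd* genes. Without *hpl-2*(*tm1489*) replicate 2, 17 members were called higher and 4 lower.

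Position was described by gene order alone, from a RefSeq table of another assembly that held all 37 genes. Members with at most 19 genes between them formed 12 groups, of which 4 held a single gene. No test of position was run, and over all genes tested 33.9% were called higher and 27.6% lower. The group of *ssp-9*, *ssp-11*, *msp-55*, *msp-57* and *msp-53* had all 5 members called higher, with log2 fold changes of 0.77 to 1.22. In that group *ssp-11*, *msp-57* and *msp-53* lost their call without N2 replicate 1 and with a replicate block, and *ssp-11* and *msp-53* also lost it with upper quartile scaling. In the group of *msp-33*, *msp-32*, *msp-31* and *msp-152*, the tested genes ran from 0.48 to 1.24. Other groups held both directions, and the group of 8 that runs from *msp-79* to *ssp-32* had 3 genes higher and 1 lower, from -0.66 (*msp-56*) to 4.73 (*msp-79*). Of the 5 pairs of members with no gene between them, *msp-57* and *msp-53* were both higher with all libraries included, whereas in the pair of *msp-77* (log2 fold change -0.33) and *ssp-32* (1.52) only *ssp-32* was called.

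A further 10 rows carry *msp* or *ssp* names in RefSeq but are listed by sequence name in the count table, and 4 of them are pseudogenes. None of the 37 members is a pseudogene in that annotation. Of the 8 rows tested, 3 were higher and 2 lower. Over all genes tested, 33.9% were higher and 27.6% lower, so these counts do not set the rows apart. The rows that fell were the pseudogenes F59A6.8 (*msp-71*), with 368, 150 and 230 counts in *hpl-2*(*tm1489*) and 1588 and 1382 counts in N2 (log2 fold change -3.34, adjusted p = 8.91e-05), and F26G1.8 (*msp-42*), with 460, 329 and 269 counts in *hpl-2*(*tm1489*) and 1123 and 799 counts in N2 (log2 fold change -2.19). The rows that rose were W02D9.5 (*ssp-37*), at a log2 fold change of 3.65, R08A2.3 (*ssp-33*), at 2.69, and the pseudogene K08F4.10 (*msp-37*), at 2.42 with 37, 40 and 27 counts in *hpl-2*(*tm1489*) and 0 and 7 counts in N2.

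Of a list of 6 other genes with an MSP domain, 5 were tested, with 2 higher and 1 lower. Over all genes tested, 33.9% were higher and 27.6% lower, so these counts do not set the list apart. *msd-4* had 263, 542 and 308 CPM in *hpl-2*(*tm1489*) and 120 and 132 CPM in N2, a 2.95-fold increase (adjusted p = 0.00454), and *msd-3* rose 3.77-fold (adjusted p = 0.00225). *spe-47*, whose product acts in the timing of sperm activation, was 7.62-fold lower (adjusted p = 0.000985), with 2.65, 0.837 and 3.36 CPM in *hpl-2*(*tm1489*) and 13.6 and 21.2 CPM in N2. *msd-2* was not called (log2 fold change 0.53), nor was *vpr-1*, a ubiquitous membrane contact protein whose cleaved MSP domain is also secreted (log2 fold change -0.52). *msd-1* had 11, 19 and 8 counts in *hpl-2*(*tm1489*) and none in N2, too few to pass the filter.

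The *nspd* genes, a family of short nematode-specific peptides made in sperm, moved together. All 9 tested were called higher in *hpl-2*(*tm1489*), with log2 fold changes of 0.66 (*nspd-6*) to 2.40 (*nspd-3*) and a median of 1.71. Over all genes tested, 33.9% were higher and the median was 0.16. The summed level of the *nspd* genes was 878, 1781 and 961 CPM in *hpl-2*(*tm1489*) and 361 and 364 CPM in N2. Without *hpl-2*(*tm1489*) replicate 2, the highest library, 8 *nspd* genes were called higher. Their median was then 1.16, beside 0.03 over all genes. *nspd-2* alone had 282, 586 and 307 CPM in *hpl-2*(*tm1489*) and 81.0 and 87.7 CPM in N2.

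Genes for the assembly and activation of sperm went the other way. Of 25 genes found in the table from a list of 29 names, 15 were lower, 3 were higher and 7 were not called. Over all genes tested, 27.6% were lower and 33.9% higher. The median log2 fold change of the list was -1.08. *gsp-3* and *gsp-4*, which encode sperm-specific protein phosphatases, were 2.39-fold and 1.88-fold lower (adjusted p = 0.013 and 0.0232), and both calls were lost without N2 replicate 2 (adjusted p = 0.13 and 0.19). *fer-1*, needed for the fusion of membranous organelles with the sperm surface, had the largest decrease, with 1.76, 0.555 and 2.42 CPM in *hpl-2*(*tm1489*) and 20.8 and 26.7 CPM in N2 (log2 fold change -3.91, adjusted p = 0.000234). *spe-12*, a sperm activation gene, had the largest increase (log2 fold change 3.01, adjusted p = 0.000923). *spe-6*, the kinase needed for MSP to assemble into fibrous bodies, was not called, with 14.9, 13.9 and 18.5 CPM in *hpl-2*(*tm1489*) and 23.2 and 17.1 CPM in N2 (log2 fold change -0.36, adjusted p = 0.3).

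The *msp* counts were also set against the counts of these other sperm genes within each library, which needs no scaling between libraries. Genes with many counts weigh most in such sums. In *hpl-2*(*tm1489*) replicate 1, *smz-2*, *spe-15* and *gsp-3* gave 9428, 8987 and 6362 of the 55362 assembly and activation counts. Of these, *smz-2* was called higher, *gsp-3* lower, and *spe-15* was not called. For each count of a sperm assembly or activation gene there were 5.57, 5.34 and 5.48 *msp* counts in *hpl-2*(*tm1489*) and 2.52 and 3.06 in N2. For each *nspd* count there were 2.75, 1.31 and 2.80 *msp* counts in *hpl-2*(*tm1489*) and 4.17 and 5.59 in N2. Neither ratio overlapped between the groups, and they differed in opposite directions. The exact two-sided permutation test gave p = 0.1 for each, the smallest p that the 10 orderings of 3 and 2 libraries allow, so neither could pass a threshold of 0.05.

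**Figure D4:**
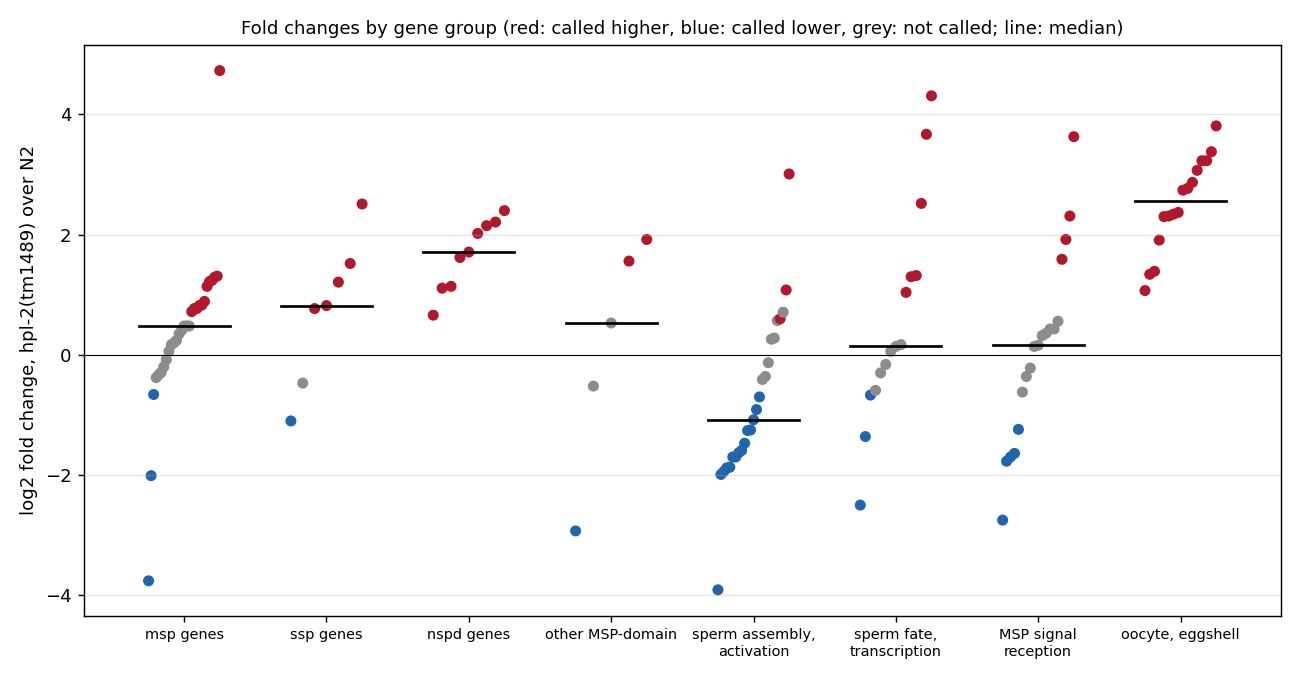
Log2 fold changes of *hpl-2*(*tm1489*) over N2 for single genes in each group, with red for genes called higher, blue for genes called lower, grey for genes not called and a line at the group's median. The *msp* genes lie mostly between the *nspd* genes (median 1.71) and the sperm assembly and activation genes (median -1.08).

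Genes that set the sperm fate of the germ line or act in transcription for sperm went both ways, with 6 of 15 tested higher and 3 lower. Over all genes tested the shares were 33.9% and 27.6%, so these counts do not set the list apart. *fem-3*, which promotes male and sperm fates, had 76.9, 111 and 96.6 CPM in *hpl-2*(*tm1489*) and 6.84 and 8.06 CPM in N2 (log2 fold change 3.67, adjusted p = 4.02e-05). *her-1*, a secreted masculinizing factor, had the largest increase of the list, with 143, 214 and 131 counts in *hpl-2*(*tm1489*) and 7 and 3 counts in N2 (log2 fold change 4.31, adjusted p = 0.000208). *fog-1* and *fog-3*, both required for germ cells to become sperm, changed in opposite directions. *fog-1* had 10.8, 4.61 and 13.2 CPM in *hpl-2*(*tm1489*) and 3.42 and 4.35 CPM in N2 (log2 fold change 1.30, adjusted p = 0.0288), a call that was lost without N2 replicate 1 (adjusted p = 0.127). *fog-3* had 1.19, 0.784 and 1.28 CPM in *hpl-2*(*tm1489*) and 5.30 and 6.97 CPM in N2 (log2 fold change -2.50, adjusted p = 0.00028). *elt-1*, the GATA factor known to act at *msp* promoters, had 5.26, 4.45 and 6.49 CPM in *hpl-2*(*tm1489*) and 8.09 and 9.07 CPM in N2 (log2 fold change -0.67, adjusted p = 0.0695), and its call was lost without *hpl-2*(*tm1489*) replicate 1 or either N2 library (adjusted p = 0.125 to 0.243).

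On the receiving side of the MSP signal, 4 of 19 genes were higher and 5 lower, beside 33.9% and 27.6% of all genes tested, and these counts likewise do not set the list apart. *vab-1*, the Eph receptor that binds MSP on oocytes, was not called, with 40.98, 16.9 and 52.4 CPM in *hpl-2*(*tm1489*) and 31.0 and 35.9 CPM in N2 (log2 fold change 0.14, adjusted p = 0.804). *oma-2*, an oocyte maturation factor, had the largest increase (log2 fold change 3.63, adjusted p = 0.000378). *inx-14*, a gap junction subunit between sheath cells and oocytes, rose 4.94-fold (adjusted p = 0.00021). *gsa-1*, the G protein subunit through which sheath cells respond to MSP, had the largest decrease (log2 fold change -2.75, adjusted p = 9.79e-05). The other genes called lower were *kin-1* (-1.77), *kin-2* (-1.70), *unc-43* (-1.64) and *ceh-18* (-1.24). The others called higher were *inx-22* (1.92) and *oma-1* (1.59).

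Markers of stage and of oocytes also differed between the strains. Oocyte, eggshell and adult collagen genes were higher in *hpl-2*(*tm1489*), the strain that the labels place at the earlier stage. Most molt genes and the vitellogenin genes were lower in that strain. Over all genes tested, 33.9% were higher and 27.6% lower. All 16 oocyte and eggshell genes were higher, with a summed level of 2511 to 8137 CPM in *hpl-2*(*tm1489*) and 1097 and 1516 CPM in N2. Of 10 molt genes, 9 were lower and *nas-37* was not called, with a summed level of 111 to 176 CPM in *hpl-2*(*tm1489*) and 1398 and 2028 CPM in N2. The 3 adult collagen genes were all higher, with sums of 1399 to 2257 CPM in *hpl-2*(*tm1489*) and 592 and 511 CPM in N2, and the 6 vitellogenin genes were all lower, with sums of 808 to 1646 CPM in *hpl-2*(*tm1489*) and 6620 and 7254 CPM in N2. Their part in the result for the *msp* and *ssp* genes was not tested.

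Males also make sperm, and most of their marker genes were near the floor in both strains. The male neuron genes *lov-1*, *pkd-2*, *cwp-1*, *cwp-2* and *cwp-3* had at most 11 counts in any library, and *cwp-3* was at 0 in 4 of the 5. Of the 4 genes of this list that were tested, *cwp-4* and *cwp-5* were lower, *swm-1* was not called, and *try-5*, a protease of seminal fluid, was higher, with 187, 304 and 146 counts in *hpl-2*(*tm1489*) and 37 and 12 counts in N2. Over the whole list of 9 genes the summed level was 51.7 to 92.4 CPM in *hpl-2*(*tm1489*) and 55.3 and 41.4 CPM in N2, most of it from *swm-1*.

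**Figure D5:**
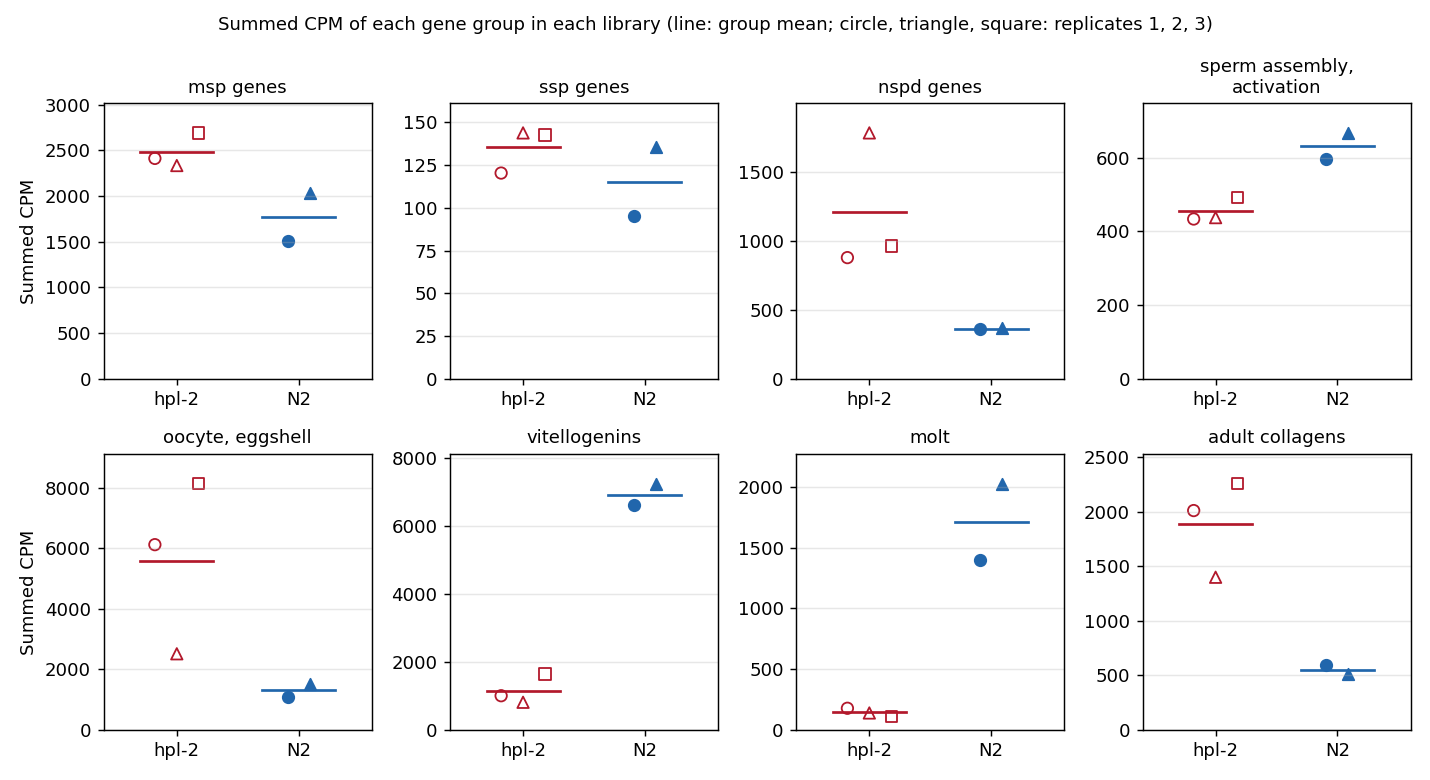
Summed CPM of each gene group in each library, on axes that start at 0, with open red symbols for *hpl-2*(*tm1489*) at the left and filled blue symbols for N2 at the right of each panel (circle, triangle and square for replicates 1, 2 and 3, and a line for the mean). The *msp* sum (2333 to 2690 CPM against 1505 and 2037 CPM) differs far less between the strains than the *nspd*, oocyte, molt or vitellogenin sums do.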

How the data were processed

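The poly(A) samples were 3 of *hpl-2*(*tm1489*) and 2 of N2, described by the study as biological replicates. After trimming, the authors used TopHat2 2.0.14 for alignment to WS220 and Rsubread for counting uniquely mapped reads per gene, and the deposited counts are not normalized. Whether counting used the strand is not given in the sources used here. The ChIP-seq, J2 and total RNA samples were not analyzed here.

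The counts were filtered (edgeR filterByExpr, minimum count 10), TMM-normalized and tested with edgeR 4.0.16 (R 4.3.3) by the robust quasi-likelihood test with genotype alone, with Benjamini-Hochberg adjustment over 17498 genes. Standard errors were derived from the F statistic. For class totals, the *msp* and *ssp* rows were each summed before the fit. Pairs of libraries of one strain differed by more than sampling noise (chi-square over degrees of freedom of 100.3 or more). That does not show that they are independent, and each was taken as 1 replicate on the study's description. The procedure was also run on simulated data in which far fewer genes changed than were called here. That run does not test the calls under so broad a change.

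Members and lists were chosen with earlier results of these data known. Members named with their values were the 8 with the highest mean CPM, the 6 largest called changes in each direction with a mean of at least 20 counts, up to 6 uncalled members with a mean of at least 100 counts, and every *ssp* gene. *msp-10* and the renamed rows were chosen after their values were seen. List genes absent by name were looked up in a RefSeq table (WBcel235), used only for names, biotype and gene order. Alternatives were DESeq2 1.42.0, other scalings and filters, other thresholds, a replicate block and each library left out.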

Additional observations from a re-analysis of the deposited data

How the results depend on the processing

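Of the 21 members called, 20 kept their call under DESeq2, 20 with DESeq2's size factors and 14 with upper quartile scaling, and none was called in the opposite direction in any fit. The number called higher was 17, and it was 10 with upper quartile scaling, 9 without N2 replicate 1 and 9 when an absolute log2 fold change above 1 was also asked for. The number called lower was 4, and it was 8 with upper quartile scaling. Across the 5 fits that each left out a library, the number called higher ran from 9 to 17 and the number called lower from 3 to 4. The median log2 fold change of the members, 0.48, was 0.17 with upper quartile scaling, 0.76 with library size alone and between 0.30 and 0.78 with a library left out. The 2 scalings moved the median of all genes from 0.16 to -0.16 and 0.41. The members' median minus that of all genes was 0.32, and it was 0.33 and 0.35 with these scalings, 0.26 under DESeq2, 0.16 without a filter, 0.05 without N2 replicate 1 and 0.61 without N2 replicate 2. The *msp* sum passed the test with library size alone (0.75), and the *ssp* sum was -0.08 with upper quartile scaling and between 0.01 and 0.53 with a library left out.

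Members near 0 changed sign without being called. With upper quartile scaling *msp-3* was at -0.27, *msp-10* at -0.21, *msp-59* at -0.09, *msp-142* at -0.12 and *vab-1* at -0.23. With library size alone *msp-64* was at 0.08 and *msp-113* at 0.19. *msp-3* was at -0.0019 under DESeq2, -0.02 with its size factors and -0.03 without a filter. With a library left out, log2 fold changes ran from -0.20 to 0.41 for *msp-3*, -0.58 to 0.65 for *msp-10*, -0.01 to 0.57 for *msp-59*, -0.40 to 0.04 for *msp-64*, -0.30 to 0.20 for *msp-113* and -0.22 to 0.38 for *vab-1*. The scalings shift all genes by the amounts above, which is enough to turn the sign of a member near 0. For the other fits the cause was not tested.

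Replicate numbers 1 and 2 occur in both strains. Across genes, the deviations from the strain means had a correlation of -0.331 between the libraries numbered 1 and -0.394 between those numbered 2. Neither value gives a sign of pairing. With 2 N2 libraries their deviations mirror each other, so the values are not separate checks and do not settle whether libraries were paired. In the fit with a replicate block, 9 members were called higher and 3 lower, *msp-10* was at -0.53 and *vab-1* at -0.34. With 2 N2 libraries the spread within N2 is poorly known, and low counts limit *msp-32*, *msp-79* and *msp-74* most.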
